A study of Mus musculus with 6 samples.

Results

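The 45 genes described here encode nuclear subunits of the respiratory chain complexes I to IV, read in LSK cells of mice with and without Ash2l. A gene was counted as measured when a probe set of the array is annotated to it alone, and the probe set with the highest mean over the 6 arrays stood for it. This gave 44 of the 45 subunit genes, among 30738 genes with a probe set of their own: 20 of 21 in complex I, 4 of 4 in complex II, 6 of 6 in complex III and 14 of 14 in complex IV. Ndufs6 was left out because its probe set is shared with a second gene. Each of the 44 had exactly 1 such probe set. Ndufa4 carries a complex I name and was placed in complex IV, where its protein sits.

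The arrays hold 3 Ash2l KO and 3 control samples of total RNA from bone marrow cells sorted as lin-, Sca1+ and cKit+, a gate (LSK) that is rich in hematopoietic stem and multipotent progenitor cells. KO mice carried Ash2l exon4 fl/fl together with MxCre, a Cre transgene under the interferon-inducible Mx1 promoter. Control mice carried the same exon4 fl/fl alleles without Cre. Adult mice of both groups received 3 intraperitoneal injections, of poly(dIdC) by the labels and of pIC by the study's methods, and marrow was taken on day 10. The deletion is thus driven by an interferon response that both groups share, it is not limited to LSK cells, and no array is tied to a single animal. From each sample 40 ng of RNA was amplified, labeled and hybridized to an MTA-1.0 array, and the deposited value is 1 log2 signal for each of 65956 probe sets. The number of arrays limits the precision, and p-values measure the spread between these samples.

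The respiratory chain passes electrons from NADH, through complex I, and from succinate, through complex II, to ubiquinone, and on through complex III, cytochrome c and complex IV to oxygen. Complexes I, III and IV pump protons while they do so, and ATP synthase uses the gradient. Most subunits are encoded in the nucleus, but the catalytic centre of complex IV and the membrane core of complex I are made from mitochondrial DNA. Quiescent hematopoietic stem cells are known to rely largely on glycolysis, whereas differentiation is accompanied by a greater use of respiration. Complex IV has tissue isoforms, with one set of genes used in most tissues and another in heart and skeletal muscle.

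Ash2l itself had log2 signals of 9.65, 9.63 and 9.65 in the KO arrays, against 10.76, 10.57 and 10.23 in the control arrays. All KO arrays lay below all control arrays, with a log2 fold change (KO minus control) of -0.88 (standard error 0.15, adjusted p = 0.198, limma). Its probe set stands for the whole gene and so also reads exons that are not deleted. Of the progenitor genes, Kit, which is part of the gate, was at 12.28 to 12.40 in KO and 11.93 to 12.92 in control arrays, and Cd34 at 15.14 to 15.38 in KO and 13.99 to 15.32 in control arrays. Flt3, a receptor of multipotent and lymphoid progenitors, was at 10.89 to 11.01 in KO and 11.84 to 12.80 in control arrays, with no overlap (adjusted p = 0.244, limma). Slamf1, Mecom, Hlf and Procr overlapped between the groups. Over the 7 measured progenitor genes the mean log2 signal was 10.1 to 10.3 in KO and 9.56 to 11.0 in control arrays. Control replicate 3 stood apart from the other 2 controls: 8 genes of lymphoid progenitors and B cells had a mean log2 signal of 8.77 to 9.65 in KO arrays, against 12.9 and 12.5 in control replicates 1 and 2 and 8.69 in control replicate 3. The 8.69 joins opposite gaps to the KO arrays. Dntt was at 14.14 in control replicate 3 and 9.73 to 10.16 in KO arrays, and Ebf1 at 6.18 and 8.54 to 9.64. All 8 genes had a log2 fold change below 0. That of Dntt was the lowest (-5.80, adjusted p = 0.151, limma), with all KO arrays below all controls. The mean of 5 megakaryocyte genes ran the other way, at 9.10 to 9.39 in KO arrays. It was 7.79 and 7.90 in control replicates 1 and 2 and 9.60 in control replicate 3. Of these genes 4 were above 0, up to 1.98 for Ppbp, with all KO arrays above all controls. Vwf was below 0 (-0.30), with all KO arrays below all controls. The 5 erythroid genes also differed in direction, with 2 above 0 and 3 below. They ran from 0.72 for Car2, with overlapping arrays, to -3.66 for Car1, with all KO arrays below all controls. The 10 granulocyte genes had a mean of 10.6 to 11.6 in KO arrays, 11.0 and 10.6 in control replicates 1 and 2 and 8.54 in control replicate 3. This mean hides opposite differences, with 6 genes above 0 and 4 below, from 4.07 for S100a8 to -2.15 for Ngp on the log2 scale. The 3 eosinophil genes had a mean of 6.71 to 7.39 in KO and 8.16 to 9.18 in control arrays. That gap came mostly from Prg2 (-4.52), whereas Prg3 and Epx (-0.37 each) overlapped between the groups. The 5 monocyte and macrophage genes had a mean of 9.60 to 10.5 in KO and 9.28 to 10.4 in control arrays. This mean also hides opposite differences, with 3 genes above 0 and 2 below. They ran from 2.69 for Lyz2, with all KO arrays above all controls, to -1.54 for Ly86, with overlapping arrays. The 6 genes of T and NK cells were all above 0, with a median log2 fold change of 1.07. Without control replicate 3 their median was 0.91, with 5 genes above 0. Whether these cell populations or this array have a part in the differences below was not tested, and fewer cells of a type cannot be told apart from less RNA per cell. The main results on the subunit genes and the counts and medians of the other lists of mitochondrial genes are therefore given with and without control replicate 3. Of the marker lists above, the median log2 fold change moved from -1.69 to -2.98 in lymphoid and B cell genes without that array. It moved from 0.63 to 1.10 in megakaryocyte genes and from 1.11 to 0.45 in granulocyte genes.

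Most subunit genes had slightly higher signals in Ash2l KO cells. Of the 44 genes, 38 had a log2 fold change above 0, against 43.0% of all genes and 50.2% of the 5074 genes with a mean log2 signal of at least 10, a level that 40 of the 44 reached. The median log2 fold change of the 44 was 0.23, and that of all genes -0.03. The single values ran from -1.97 for Cox6a2 to 0.70 for Ndufa9. No subunit gene passed an adjusted p under 0.05, nor did any of the 65956 probe sets, whose smallest adjusted p was 0.0528 (limma, Benjamini-Hochberg). At an unadjusted p under 0.05 (limma), 5 genes were higher in KO cells, namely Ndufb3, Ndufv1, Sdhb, Cyc1 and Cox6b1, where the share among all genes was 4.58%, and 5.56% among those with a mean of at least 10. Cox6a2 was the 1 gene that was lower at this threshold (6.84% of all genes, and 10.4% of those with a mean of at least 10). It was also the 1 subunit gene with a difference above 2-fold and a limma p under 0.01 before adjustment (0.481% of all genes were lower by this rule).

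The 6 arrays did not separate by group for these genes, because control replicate 3 had values like those of the KO arrays. Every KO array lay above control replicates 1 and 2 in 34 of the 44 genes (19.3% of all genes, and 27.0% of those with a mean of at least 10). Control replicate 3 lay above both of these controls in 35 genes (42.8% of all genes) and above every KO array in 19, a number near the share of all genes (38.1%, and 42.5% of those with a mean of at least 10). All KO arrays were above all 3 controls in 7 genes (5.83% of all genes) and below them in 1 gene, Cox6a2 (11.0% of all genes). The spread was smaller among KO than among control arrays in 38 of the 44 genes, with a median SD of 0.089 among KO and 0.275 among control arrays. These medians were 0.13 and 0.172 over all genes, and 0.136 and 0.253 among those with a mean of at least 10. A wider spread among the controls was thus not particular to the subunit genes. The median over the 44 genes of the signal relative to each gene's own mean was 0.12, 0.10 and 0.10 in the KO arrays, against -0.23, -0.21 and 0.15 in the control arrays, in which replicate 3 was the highest of all 6.

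**Figure D1:**
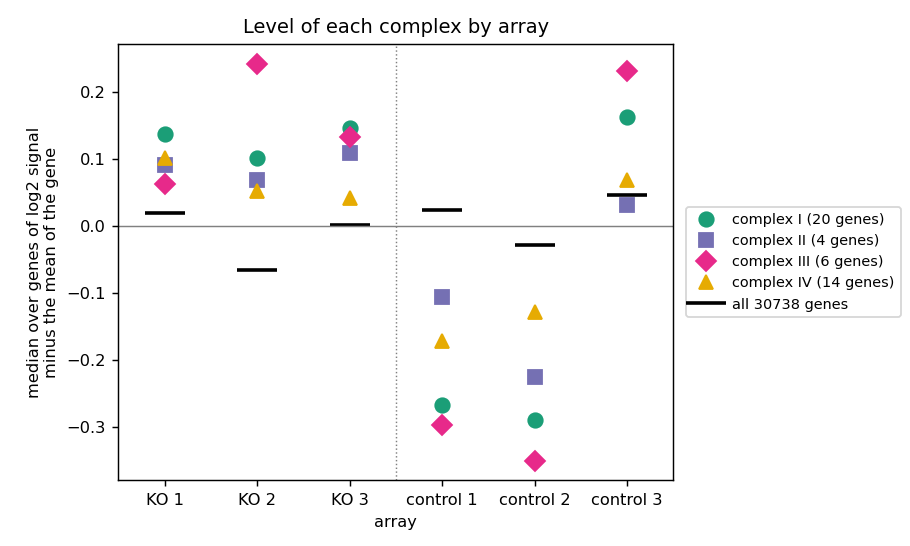
Median over the genes of each complex of the log2 signal minus the gene's own mean, for the 3 KO and 3 control arrays; each point is 1 complex in 1 array and the black dash is the median of all 30738 genes. In control replicates 1 and 2 all 4 complexes lie below 0, and in the KO arrays and control replicate 3 all 4 lie above 0.

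Without control replicate 3, which leaves 3 KO and 2 control arrays, the number of genes higher at an unadjusted p under 0.05 was 21 of 44, where the share of all genes was 11.0%, and 17.3% of genes with a mean of at least 10. The number lower was 1, where the shares were 8.43% and 13.2%. In this comparison 5 subunit genes passed an adjusted p under 0.05 (4.41% of all genes). Uqcrc1, Ndufv1, Cox6b1 and Cyc1 rose, with log2 fold changes of 0.85, 0.88, 0.77 and 0.72 (adjusted p = 0.0189, 0.0343, 0.0411 and 0.0482, limma; 2.68% of all genes were higher). Cox6a2 fell by 2.47 on the log2 scale (adjusted p = 0.0365; 1.73% of all genes were lower). The median log2 fold change of the 44 genes was then 0.32, and it was 0.14 and 0.16 when control replicate 1 or 2 was left out in place of replicate 3. With those arrays left out, 1 and 0 genes were higher at an unadjusted p under 0.05.

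**Figure D2:**
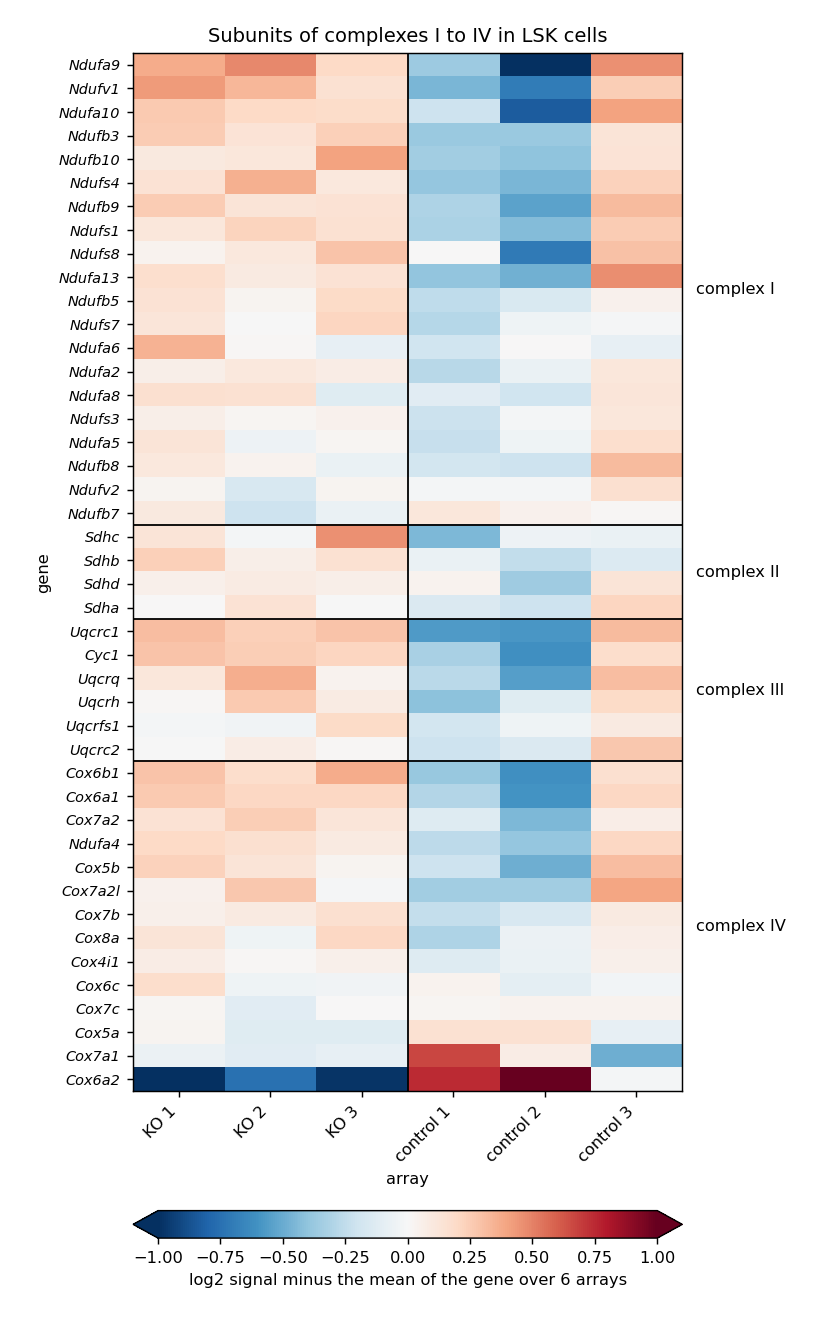
Log2 signal of each of the 44 subunit genes minus its mean over the 6 arrays, with KO arrays on the left and control arrays on the right, and with genes ordered within each complex by their log2 fold change; colours stop at 1 in either direction. Control replicates 1 and 2 are low for most genes, control replicate 3 is not, and Cox6a2 at the bottom shows the opposite pattern.

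Complex I, the NADH dehydrogenase, showed a median difference of 0.26 on the log2 scale, with 18 of 20 measured genes above 0. The 6 core subunits, which carry the flavin or the iron-sulfur clusters or hold them in place, had a median of 0.25, and the 14 accessory subunits, which surround the core, one of 0.26. Ndufv1, the core subunit that binds FMN and NADH, had log2 signals of 11.41, 11.32 and 11.14 in KO, against 10.53, 10.29 and 11.23 in control arrays. Control replicate 3 fell within the KO values, and the other controls were below all of them. The log2 fold change was 0.61 (standard error 0.24, 1.52-fold, adjusted p = 0.438, limma). Ndufb3, an accessory subunit of the membrane arm, was at 12.82, 12.70 and 12.80 in KO and at 12.19, 12.19 and 12.69 in control arrays. Here the groups did not overlap, although control replicate 3 came within 0.01 of the lowest KO array, and the log2 fold change was 0.42 (standard error 0.16, adjusted p = 0.425).

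The largest difference in complex I was that of Ndufa9, an accessory subunit at the junction of the arms, with a log2 fold change of 0.70 and the widest standard error of the complex (0.37). Its KO arrays were at 13.65 to 13.93, and its control arrays were spread from 12.30 to 13.91, with control replicate 3 among the KO values and the other 2 below all of them. The accessory subunit genes Ndufa10, Ndufb10 and Ndufs4 differed by 0.43, 0.41 and 0.41. Ndufs1, the largest core subunit of the peripheral arm, had one of 0.33, and Ndufa13, also known as GRIM-19, of 0.27 with control replicate 3 above every KO array. The remaining 10 genes above 0, among them the core subunits Ndufs3, Ndufs7 and Ndufs8, ranged from 0.05 for Ndufb8 to 0.35 for Ndufb9. Ndufb7 and Ndufv2 had values below 0, of -0.12 and -0.07. Without control replicate 3 the median of complex I was 0.41, and 10 of its 20 genes were higher at an unadjusted p under 0.05 (11.0% of all genes, and 17.3% of those with a mean of at least 10).

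Complex II is succinate dehydrogenase, an enzyme of the citric acid cycle as well, and all of its subunits are nuclear. Its 4 genes were all above 0, with a median of 0.21. Sdhb, the iron-sulfur protein, had log2 signals of 11.54, 11.36 and 11.46 in KO, against 11.24, 11.06 and 11.17 in control arrays. The groups did not overlap, and unlike in most other subunit genes control replicate 3 lay between the other 2 controls. Its log2 fold change of 0.30 (standard error 0.11, 1.23-fold, adjusted p = 0.411, limma) therefore hardly moved when that array was left out (0.30). Sdhc, a membrane anchor, also had all KO arrays (10.83 to 11.31) above all control arrays (10.40 to 10.80), a difference of 0.38 on the log2 scale (standard error 0.18). Sdha, the flavoprotein, and Sdhd, the other anchor, differed by 0.09 and 0.13, with control replicate 3 above every KO array in both.

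Complex III, the ubiquinol to cytochrome c reductase, showed a median difference of 0.29 on the log2 scale, and 6 of 6 genes were above 0. Cyc1 encodes cytochrome c1, the subunit that hands the electron to cytochrome c. It was at 13.37, 13.33 and 13.30 in KO, against 12.76, 12.47 and 13.26 in control arrays. The groups did not overlap, with control replicate 3 just below the KO arrays, and the log2 fold change was 0.50 (standard error 0.20, adjusted p = 0.437, limma). Uqcrc1, a core protein, had nearly equal values in the KO arrays (12.16, 12.09 and 12.14) and 11.29, 11.27 and 12.17 in the control arrays. Control replicates 1 and 2 were thus well below and control replicate 3 above every KO array, and the log2 fold change of 0.55 (standard error 0.25, adjusted p = 0.487) became 0.85 without that array. Uqcrq and Uqcrh, a small accessory subunit and the hinge protein, differed by 0.35 and 0.23. The Rieske iron-sulfur protein gene Uqcrfs1 and the second core protein gene Uqcrc2 were closest to 0, at 0.09 and 0.05. The medians of the 4 complexes lay within 0.20 to 0.29, and no difference between complexes was tested. Their order changed with the processing: the median of complex III was the highest in 7 of 10 fits, but not with quantile normalization (0.22, against 0.23 in complex II), without KO replicate 2 (0.20, against 0.29 in complex I) or without control replicate 1 (0.19, against 0.21 in complex II). Among the 7, averaging of probe sets and median centring only repeat the medians of the main fit.

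**Figure D3:**
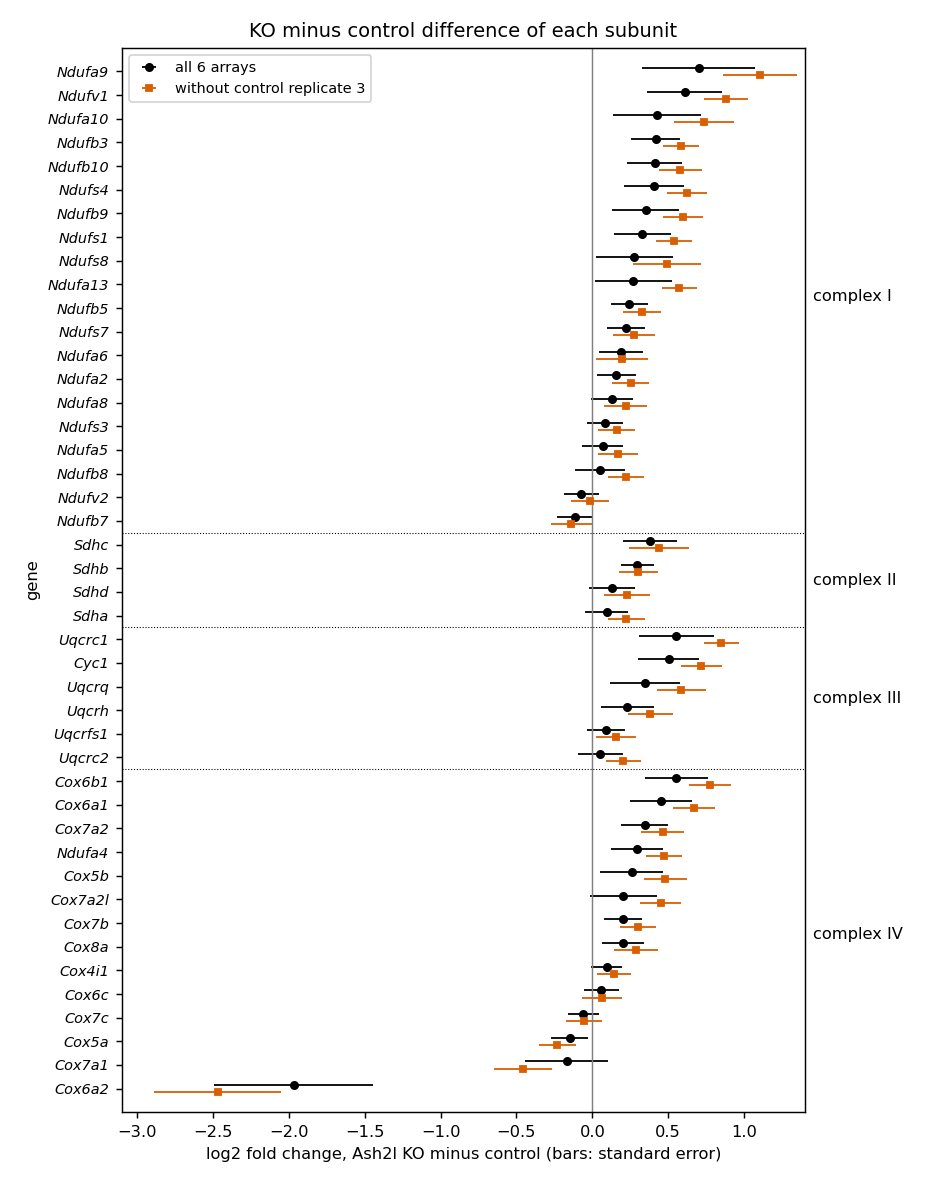
Log2 fold change, KO minus control, of each subunit gene with its standard error from limma, for all 6 arrays (black circles) and without control replicate 3 (orange squares), by complex. With all arrays the values run from -1.97 for Cox6a2 to 0.70 for Ndufa9, and without control replicate 3 the median of the 44 genes is 0.32 in place of 0.23.

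Complex IV, cytochrome c oxidase, had 10 of 14 genes above 0 and a median of 0.20. Cox6b1, the common form of a subunit on the side of cytochrome c, had log2 signals of 16.46, 16.35 and 16.55 in KO, against 15.80, 15.56 and 16.34 in control arrays. The groups did not overlap, by a margin of 0.01 to control replicate 3, and the log2 fold change was 0.55 (standard error 0.21, 1.47-fold, adjusted p = 0.410, limma). Ndufa4 and Cox5b differed by 0.29 and 0.26, Cox7b and Cox8a by 0.20 each, and Cox4i1 and Cox6c by 0.09 and 0.06. Cox5a and Cox7c were below 0, at -0.15 and -0.06. Cox7c had the smallest spread among controls of all 44 genes, with values of 12.81 to 12.83, against 12.68 to 12.81 in the KO arrays.

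The isoform genes of complex IV differed in direction. Cox6a2, the heart and skeletal muscle isoform of subunit 6a, had log2 signals of 7.45, 7.93 and 7.70 in KO, against 9.42, 10.90 and 8.66 in control arrays. All KO arrays lay below all controls, control replicate 2 was the highest, and control replicate 3 was the nearest to the KO arrays. The log2 fold change was -1.97 (standard error 0.52, 3.91-fold lower, adjusted p = 0.294, limma). Cox6a1, the isoform of most tissues, was at 15.74, 15.69 and 15.69 in KO, against 15.19, 14.88 and 15.69 in control arrays, with control replicate 3 at the KO level and a KO minus control difference of 0.45 (standard error 0.20, adjusted p = 0.494). Within each array, Cox6a2 minus Cox6a1 was -8.29, -7.76 and -7.99 in KO, against -5.77, -3.98 and -7.03 in control samples. The KO and control values of this difference did not overlap and were 2.42 log2 units apart in the mean (-8.01 ± 0.27 in KO and -5.59 ± 1.53 in control, SD, n = 3 each; two-sided exact permutation p = 0.1, the smallest that 3 against 3 arrays allow). Levels of different probe sets are not comparable, so only the change of this difference is meaningful.

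Cox7a1, the heart and skeletal muscle isoform of subunit 7a, was at 8.54, 8.48 and 8.51 in KO, against 9.26, 8.67 and 8.11 in control arrays. The KO values were nearly equal and lay inside the spread of the controls. The log2 fold change was -0.17 (standard error 0.27, adjusted p = 0.875, limma) and was 0.12 without control replicate 1. Cox7a2, the isoform of most tissues, was at 15.34, 15.44 and 15.31 in KO, against 15.06, 14.74 and 15.26 in control arrays. It did not overlap between the groups (log2 fold change 0.34, standard error 0.15, adjusted p = 0.487). Cox7a2l, a related gene, was at 13.39, 13.62 and 13.34 in KO, against 13.00, 13.00 and 13.74 in control arrays. Control replicate 3 was its highest array, and the log2 fold change was 0.20 (standard error 0.22, adjusted p = 0.803). For Cox7a1 minus Cox7a2 within each array, KO and control means differed by -0.51 (two-sided exact permutation p = 0.4).

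Across the arrays Cox6a2 varied in parallel with 4 genes known from plasmacytoid dendritic cells, a cell type that makes interferon, and with Ly86 of the monocyte list. Siglech, a surface lectin of these cells, was at 6.38, 6.47 and 6.57 in KO, against 7.84, 9.56 and 6.82 in control arrays. Irf8, a transcription factor of dendritic cell and monocyte development, was at 7.56, 7.57 and 7.41 in KO, against 9.14, 10.74 and 7.98 in control arrays. Both had their highest value in control replicate 2 and their lowest control value in replicate 3, in the same order as Cox6a2. Pearson's r of Cox6a2 over the 6 arrays was 0.98 with Irf8, 0.98 with Siglech, 0.95 with Tcf4 and 0.91 with Spib. It was 0.50 with Klk1, -0.05 with Pacsin1, -0.43 with Ccr9 and -0.57 with Bst2, so that 4 of the 8 measured genes of this list had an r over 0.9. In the other 9 marker lists 1 gene did, Ly86 (0.93), and the highest r was 0.88 among lymphoid and B cell genes (Dntt), 0.87 among eosinophil genes (Prg2) and 0.70 among muscle genes. These are descriptions over 6 arrays that fall in 2 groups and share the same cell sorts. The mean log2 signal of the 8 genes was 7.82 to 7.94 in KO and 7.90 to 9.07 in control arrays. The KO minus control difference was -1.60 for Siglech (adjusted p = 0.425, limma) and -1.77 for Irf8 (adjusted p = 0.389). Spib, Tcf4 and Klk1 differed by -1.25, -0.38 and -0.24, with overlapping arrays. Bst2, Ccr9 and Pacsin1 were above 0, at 0.68, 0.10 and 0.04, also with overlapping arrays. Of 12 muscle genes, which include Ckm, Actc1 and Tnnt2, 0 had an unadjusted p under 0.05 in limma, and their mean log2 signal was 5.99 to 6.20 in KO and 6.09 to 6.32 in control arrays. The part of either cell type in the Cox6a2 signal was not tested.

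**Figure D4:**
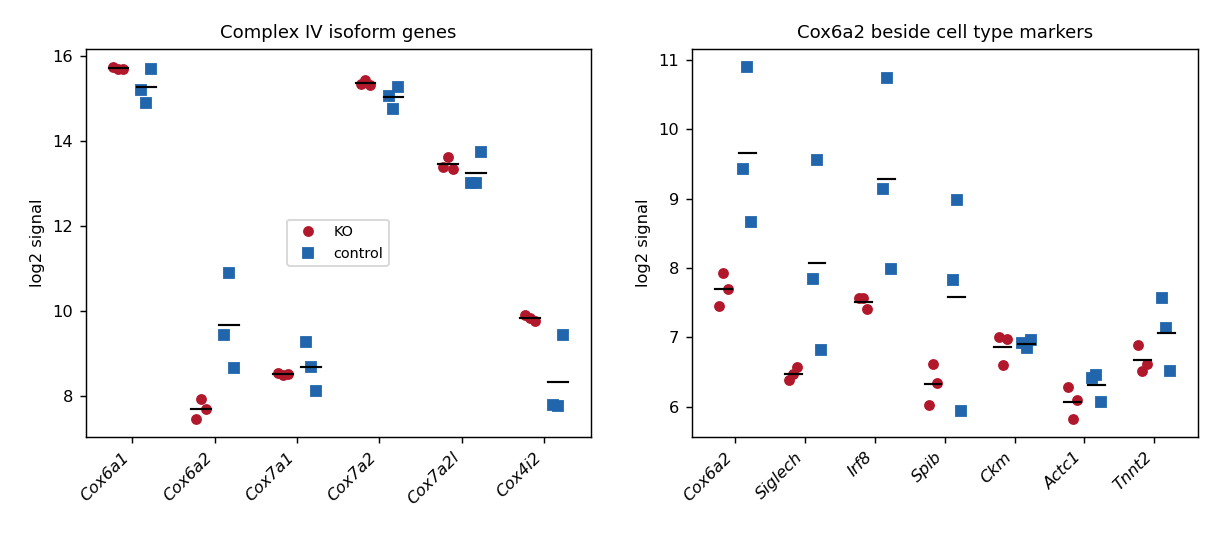
Log2 signal in KO (red circles, left) and control arrays (blue squares, right), with a black line at the mean, for isoform genes of complex IV (left panel) and for Cox6a2 beside genes of plasmacytoid dendritic cells (Siglech, Irf8, Spib) and muscle (Ckm, Actc1, Tnnt2) (right panel). Cox6a2, Siglech and Irf8 are highest in control replicate 2, whereas Ckm is at 6.60 to 7.01 in KO and 6.85 to 6.96 in control arrays. Other marker genes of these cell types are not drawn.

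Across the 6 arrays most subunit genes varied together. Pearson's r between pairs of the 44 genes had a median of 0.66 over 946 pairs, as a description of arrays that fall in 2 groups. It was not computed for other genes, so it cannot tell whether this likeness is particular to the subunit genes. With the median profile of the 44, r was at least 0.8 for 27 genes, and it was highest for Uqcrc1 (0.996). That profile includes the gene set against it, so part of this r is built in. This r was below 0 for Ndufb7, Cox5a, Cox6a2, Cox7a1 and Cox7c, with -0.88 for Cox5a, -0.84 for Cox6a2 and -0.82 for Cox7a1. Ndufv2 and Cox6c, with 0.26 each, followed the others least among the genes above 0.

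Promoter sequence was available for 35 of the 45 genes, as RefSeq windows of GRCm38.p6 that run over 250 bases before and 50 after the gene start. Many respiratory chain genes are known to be bound by NRF1, by the ETS family factor GABP and by YY1, and these motifs were searched on both strands. The NRF1 motif (GCGCA, any base, GCGC) was found in 8 of 35 windows (22.9%), against 5.19% of 27025 genes. The ETS motif (CCGGAAG), bound by GABP, was found in 9 (25.7%, against 9.93%) and the YY1 motif (AA, any base, ATGGCGG) in 4 (11.4%, against 1.59%), and 18 windows held at least 1 of the 3. The motifs do not overlap each other in the stretches shown, and a match is a run of letters only. Among the 17 measured genes with a match the median difference, KO minus control, was 0.22, and among the 17 measured genes with a window and no match it was 0.24. Below are the 150 bases before the start of genes whose values were given above, in the gene's direction with matches in capitals. Cox6a1 (chr5:115348959-115349108, minus strand) is shown as the partner isoform of Cox6a2, with an NRF1 and an ETS match, and Cox6b1 (chr7:30626115-30626264, minus strand), one of the 5 genes at an unadjusted p under 0.05, with an ETS match. Sdha (chr13:74350241-74350390, minus strand) holds 3 NRF1 matches and Sdhd (chr9:50603850-50603999, minus strand) both kinds, and the KO arrays of neither gene were apart from the controls. Ndufv1 (chr19:4012756-4012905, minus strand), another of the 5 genes, holds no match in its window.
Cox6a1: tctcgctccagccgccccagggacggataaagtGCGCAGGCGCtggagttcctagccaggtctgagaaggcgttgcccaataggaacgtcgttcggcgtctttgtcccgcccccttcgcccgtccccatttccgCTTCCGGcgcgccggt
Cox6b1: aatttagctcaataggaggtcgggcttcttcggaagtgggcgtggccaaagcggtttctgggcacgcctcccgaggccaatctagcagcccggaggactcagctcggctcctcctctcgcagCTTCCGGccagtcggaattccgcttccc
Sdha: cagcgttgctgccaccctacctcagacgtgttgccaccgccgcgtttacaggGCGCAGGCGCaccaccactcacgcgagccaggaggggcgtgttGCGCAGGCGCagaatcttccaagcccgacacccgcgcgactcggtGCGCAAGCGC
Sdhd: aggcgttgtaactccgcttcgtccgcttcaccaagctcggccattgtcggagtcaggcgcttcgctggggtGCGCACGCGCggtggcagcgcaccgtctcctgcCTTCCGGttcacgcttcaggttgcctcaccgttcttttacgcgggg
Ndufv1: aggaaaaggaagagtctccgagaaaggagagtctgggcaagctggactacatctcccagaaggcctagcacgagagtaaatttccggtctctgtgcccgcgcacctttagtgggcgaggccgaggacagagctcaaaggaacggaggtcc

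The regulators that act through these motifs gave small differences. Nrf1 was at 8.34, 8.50 and 8.69 in KO, against 8.93, 9.07 and 8.71 in control arrays, with all KO arrays below the controls (log2 fold change -0.39, standard error 0.15, adjusted p = 0.411, limma). Gabpa and Gabpb1, which encode the 2 parts of GABP, had log2 fold changes of 0.26 and -0.27, with overlapping arrays for Gabpa and all KO arrays below the controls for Gabpb1, and Yy1 one of 0.08. Among 14 measured regulators and factors of mitochondrial biogenesis, the median was 0.11, with 1 gene higher at an unadjusted p under 0.05 (Polrmt, the mitochondrial RNA polymerase, 0.30) and 2 lower (Nrf1 and Polg, the mitochondrial DNA polymerase, -0.34). The shares of all genes were 4.58% higher and 6.84% lower. The median was 0.25 without control replicate 3, with 6 higher and 2 lower (11.0% and 8.43% of all genes).

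The other genes of the pathway were read in the same way, and 0 of the 116 measured ones passed an adjusted p under 0.05 in limma. At an unadjusted p under 0.05, 11 were higher and 4 lower, where the shares of all genes were 4.58% and 6.84%. Of 21 further nuclear subunits of complexes I, III and IV, 5 were higher and 0 lower, with a median of 0.09. Without control replicate 3 these were 7 and 0, with a median of 0.16, and of all 116 genes 39 were higher and 3 lower (11.0% and 8.43% of all genes). In that comparison 3 of the 116 passed an adjusted p under 0.05 in limma, namely Cox4i2, Ndufaf1 and Cox19, all higher. The share of all genes past it was 4.41%, and 2.68% for higher genes, so this count was not above that of all genes. Cox4i2, the isoform of subunit 4 known from lung and from oxygen sensing, was at 9.89, 9.82 and 9.77 in KO, against 7.78, 7.75 and 9.43 in control arrays, so that the groups did not overlap (log2 fold change 1.51, standard error 0.44, adjusted p = 0.320). Without control replicate 3 its log2 fold change was 2.06 (adjusted p = 0.00313), whereas Cox4i1, the common isoform, differed by 0.09 with all arrays. Ndufb6 and Ndufa1, both of complex I, had log2 fold changes of 0.43 and 0.36.

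Of the subunits encoded by mitochondrial DNA, 5 of 13 had a probe set of their own (mt-Nd2, mt-Nd3, mt-Nd6, mt-Co1 and mt-Co2). Their log2 fold changes ran from -0.30 to 0.05 with a median of -0.01, and 0 of the 5 had an unadjusted p under 0.05 in limma. Without control replicate 3 the median was -0.07, again with 0 genes past that threshold. The signals of mt-Nd3, mt-Nd6 and mt-Co1 were close to the highest signal of any probe set, which was 19.62 to 19.89 in the 6 arrays, so that values near 0 for these 3 genes do not show an unchanged level.

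ATP synthase had 15 of 18 genes above 0 and a median of 0.15. At an unadjusted p under 0.05, Atp5mpl (0.45) and Atp5o (0.29) were higher, and Atpif1, the inhibitor of the enzyme, was lower (-0.46). The shares of all genes were 4.58% higher and 6.84% lower. The median was 0.20 without control replicate 3, with 7 higher and 0 lower (11.0% and 8.43% of all genes). The assembly factors of complex I (16 genes, median 0.19) had 0 genes past that threshold in either direction, but without control replicate 3 a median of 0.31 and 6 higher genes, of which Ndufaf1 passed the adjusted threshold (log2 fold change 1.14, adjusted p = 0.0163, limma). Among those of complex II (4 genes, median -0.06) Sdhaf4 was lower (-0.42), among those of complex III (6 genes, median 0.22) Lyrm7 (0.41) and Uqcc2 (0.36) were higher, and among those of complex IV (18 genes, median 0.11) Cox10, a heme A synthesis enzyme, was higher (0.48). The medians of these 3 lists without control replicate 3 were -0.04, 0.38 and 0.21, with 0, 3 and 3 genes higher and 1, 0 and 0 lower. The 12 measured genes of the citric acid cycle had a median of 0.24, with 10 above 0 and 0 past that threshold, and without control replicate 3 a median of 0.41, with 7 higher and 0 lower. Cycs, which encodes cytochrome c, differed by 0.03 and its testis form Cyct by -0.04.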

How the data were processed

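LSK cell RNA of 3 Ash2l KO and 3 control samples was measured on 6 MTA-1.0 arrays. The authors normalized the arrays with SST-RMA, a GC and signal-space correction of probes followed by robust multi-array averaging, and deposited log2 signals of 65956 probe sets, which were used as they stand. The submitters' processing notes name Affymetrix Expression Console and Transcriptome Analysis Console. Array medians lay between 6.02 and 6.09. Of the probe sets, 30638 carry 1 gene symbol, 654 several names of 1 gene, 1522 several genes and 33142 none; 385 symbols were updated through RefSeq.

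The difference, KO minus control, was fitted in limma 3.58.1 under R 4.3.3 with no block and no filter. The Benjamini-Hochberg adjustment covered every probe set of the array. The fit was tested on simulated data. Array values are given for subunit genes with an unadjusted p under 0.05 in their complex and for isoform genes of complex IV. Uqcrc1, Sdhc and Cox7c were added for their pattern, after their values were seen. So were the further genes Flt3, Cd34, Gabpb1, Ly86, Lyz2, S100a8, Ngp, Prg2, Prg3, Epx, Ndufaf1 and Cox19. The same holds for Dntt, Ebf1, Ppbp, Vwf, Car1, Car2 and Klrb1c. Of other lists, up to 3 genes with the smallest p are named, and marker and regulator genes where a subunit result turns on them. Subunit genes and lists were chosen with earlier results of these data known. Alternatives were quantile normalization, median centring, a filter on dim probe sets, array weights, limma's trended robust priors, the methods' t-test, blocks by replicate or label number, averaging all probe sets of a gene (none of the 44 has more than 1), Ndufa4 in complex I, and leaving out each array. Figures were drawn with matplotlib 3.10.9.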

Additional observations from a re-analysis of the deposited data

How the results depend on the processing

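Of the 44 subunit genes, 31 had a log2 fold change above 0 and 4 one below 0 in all 16 fits run. These are not 16 separate checks of direction. The robust priors, the t-test, the replicate block, the filter and the averaging of probe sets leave these fold changes as they were. Median centring also gave the same median of the 44 genes, 0.23. The median of all genes moved by less than 0.1 between the scalings. The count of genes higher at an unadjusted p under 0.05, which was 5, was 16 with array weights, 2 with trend and robust priors, 2 among probe sets above the median and 1 by the methods' t-test, and it ranged from 0 to 21 over the arrays left out, with 21 without control replicate 3 and 0 without control replicate 2, KO replicate 1 or KO replicate 3. Outside the main fit (4.58%) and the fit without control replicate 3 (11.0%), the share of all genes higher was not counted. The count of subunit genes past an adjusted p under 0.05 ranged from 0 to 5 over the arrays left out. Cox6a2 was the 1 lower gene in each of the 16 fits. With an array left out, the median ranged from 0.16 to 0.41 in complex I, 0.13 to 0.27 in complex II, 0.19 to 0.48 in complex III and 0.082 to 0.29 in complex IV, and Ash2l from -1.02 to -0.76 (adjusted p = 0.0142 at the lowest, where control replicate 3 was left out). Cox7a1 ranged from -0.46 to 0.12, above 0 where control replicate 1 was left out. Counting Ndufa4 in complex I moved no median beyond the spread between arrays. The cause of these differences was not tested.

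Replicate numbers are not said to pair the samples. Deviations of same-numbered KO and control arrays correlated at 0.16, -0.17 and -0.17. The pairs that share a label number, KO replicate 1 with control replicate 1 and KO replicate 3 with control replicate 2, correlated at 0.16 each. These values cannot decide on pairing, because the deviations within a group are tied to each other. With a replicate block 4 genes were higher. With the label numbers as a block, which KO replicate 2 and control replicate 3 do not share with another array, 19 were higher. Control replicate 3 adds nothing to the comparison with label numbers, and the share of all genes was not counted for either block.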
